A study of Canis lupus familiaris with 12 samples.

Results

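The 5 lysyl oxidases (LOX, LOXL1, LOXL2, LOXL3 and LOXL4), 4 genes of the elastic fibre (ELN, FBN1, FBLN1 and FBLN5) and the fibronectin gene FN1 were examined in the atria of control and rapidly paced dogs. These 10 genes were found by their symbols among the 19856 genes of the mRNA table, and each was listed once. The dogs were mongrels of either sex. Tissue of 3 dogs per group, described by the study as right atrial, was sequenced as total RNA after removal of ribosomal RNA. In the pacing group, an electrode in the right atrium stimulated the atrium at 500 bpm and 5 V for 14 days. The control dogs had the same operation with a pacemaker that gave no stimulation. The labels give no age and name no genetic change in either group. The table names the libraries C1, C2 and C4 (control) and P1, P2 and P3 (pacing). The sample titled C4 is labelled as paced, whereas the column C4 carries the letter of the controls, so the mRNA difference of each of the 10 genes is given with C4 as a control and again without it.

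Lysyl oxidases are copper-dependent enzymes that oxidize lysine side chains of elastin and collagen, and the aldehydes formed in this way join neighbouring chains. Elastic fibres are built on microfibrils of fibrillin, onto which fibulins bring elastin before it is crosslinked. Fibronectin is laid down early in a matrix and gives collagen and other matrix proteins a surface to assemble on. In the atrium these proteins come mainly from fibroblasts and from the cells of vessel walls, and crosslinked collagen and elastic fibres set the stiffness of the wall.

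Levels are given as FPKM, fragment counts scaled by transcript length and by library size, so genes of different length can be compared. Fold changes are on the scale of log2(FPKM + 1), which understates the change of genes with low levels. The pacing libraries were deeper than the control libraries, with a relative depth of 0.531 to 0.608 in the controls and 0.723 to 1 in the pacing group, as read from the steps between low FPKM values. The library C4 stood apart. Its level of NPPA, the atrial natriuretic peptide, was 7.78 FPKM, against 1658 to 8496 FPKM in the other 5 libraries. Its level of MYL2, the ventricular myosin light chain, was 2331 FPKM against 2.28 to 108 FPKM. The ventricular markers MYL3 and MYH7 were at 3400 and 2264 FPKM in C4, against 2.92 to 79.6 and 117 to 664 FPKM elsewhere. IRX4 was at 0.449 FPKM in C4 and at 0 elsewhere. Comparisons with C4 as a control thus include a library low in most atrial and high in ventricular markers. The tissue site of C4 was not tested. The 5 atrial markers in the table summed to 138 FPKM in C4 and to 3819 to 15361 FPKM elsewhere, of which PAM, a gene of peptide processing that is not confined to the atrium, made up 102 FPKM in C4. In C4, MYL4, the atrial myosin light chain, was at 19.4 FPKM against 892 to 4378 FPKM elsewhere, GJA5 was at 8.47 FPKM against 73.2 to 103 FPKM, and KCNA5 was at 0.539 FPKM, within its range of 0.524 to 2.85 FPKM in the other libraries. The 8 fibroblast markers summed to 347 FPKM in C4, to 816 and 867 FPKM in C1 and C2 and to 658 to 868 FPKM in the pacing libraries. In such tissue RNA, fewer cells of a type and less RNA per cell cannot be told apart.

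All 10 genes had a mean of at least 1 FPKM and were tested with limma among 11583 genes. LOXL1 and LOXL4 were higher in the pacing group at an unadjusted p under 0.05, with and without C4, and their groups did not overlap. Of all genes tested, 2.52% were higher and 3.02% lower by that threshold, and the groups did not overlap in 4.9% (higher) and 6.14% (lower). No member was lower. None passed the adjusted threshold of 0.05, which 0.0259% of the genes passed, namely the mitochondrial genes COX3, ATP6 and MT-ATP8, which are listed at 0 in all 3 pacing libraries. Without C4, 11699 genes were tested, of which 2.61% were higher and 12.7% lower at an unadjusted p under 0.05 and 0.171% passed the adjusted threshold, again with no member among them. The groups then did not overlap in 7.84% (higher) and 26.7% (lower) of the genes.

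**Figure D1:**
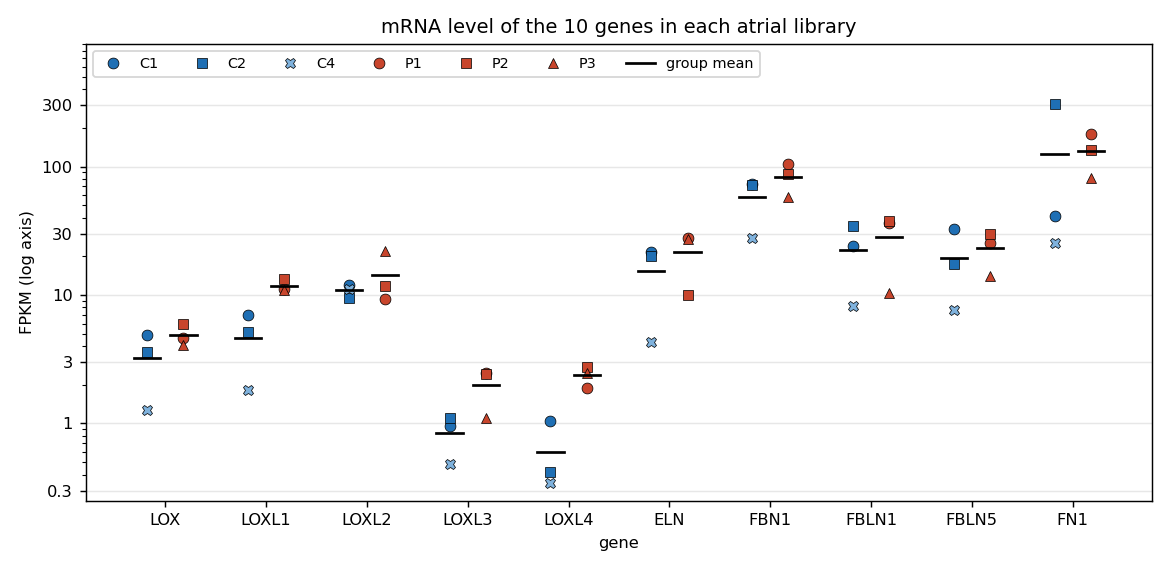
FPKM (log axis) of the 10 genes in each library, with controls on the left and pacing on the right of each gene and a black line at each group mean. C4 lies lowest of the 6 libraries for 9 of the 10 genes, and only LOXL1 and LOXL4 have all 3 pacing libraries above all 3 controls.

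LOXL1 (ENSCAFG00000023910, canFam3 chromosome 30) is a lysyl oxidase whose loss in mice impairs the renewal of elastic fibres. Its level was 6.95, 5.12 and 1.82 FPKM in C1, C2 and C4 and 11.1, 13.3 and 10.8 FPKM in P1, P2 and P3. Every pacing library lay above every control, and the pacing libraries were close to each other (11.7 ± 1.37 FPKM, SD, n = 3, against 4.63 ± 2.60 FPKM in 3 controls). The mean was 2.54-fold higher, with a log2 fold change of 1.30 (SE 0.40, unadjusted p = 0.0129, adjusted p = 0.879, limma). Without C4 the mean was 1.95-fold higher, with a log2 fold change of 0.86 (SE 0.21, unadjusted p = 0.00709, adjusted p = 0.207, limma). The unadjusted p stayed between 0.00595 and 0.0457 when each of the 6 libraries was left out in turn, and between 0.00814 and 0.0362 when a further library was left out besides C4.

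The table lists LOXL1 at 37178587 to 37276738, a span that it also gives for STOML1 and PML, so these bounds are not those of the gene alone. Neither neighbour was higher. The log2 fold change was 0.07 for STOML1 (unadjusted p = 0.860, limma) and -0.30 for PML (unadjusted p = 0.554, limma), and without C4 it was -0.14 for STOML1 (unadjusted p = 0.751, limma) and -0.90 for PML (unadjusted p = 0.00239, limma).

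LOXL4 (ENSCAFG00000009324, chromosome 28, 11400445 to 11419710, minus strand) encodes a lysyl oxidase with scavenger receptor domains, as LOXL2 and LOXL3 do. Its level was low, at 1.04, 0.419 and 0.345 FPKM in C1, C2 and C4, and at 1.89, 2.74 and 2.47 FPKM in P1, P2 and P3. Again the groups did not overlap, with C1 the highest control and P1 the lowest pacing library. The mean was 3.93-fold higher, from 0.601 ± 0.382 to 2.37 ± 0.433 FPKM (SD, n = 3 per group), with a log2 fold change of 1.09 (SE 0.30, unadjusted p = 0.00833, adjusted p = 0.879, limma). Without C4 the log2 fold change was 0.98 (SE 0.29, unadjusted p = 0.0165, adjusted p = 0.252, limma). The control mean lies below 1 FPKM, so LOXL4 entered the test through the pacing libraries. Without C4, leaving out C2, P2 or P3 raised the unadjusted p to between 0.0525 and 0.0681 (limma).

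LOXL3 (ENSCAFG00000008358, chromosome 17, 48593715 to 48609804, plus strand), which in mice is needed for the matrix of the palate and spine, was at 0.951, 1.10 and 0.487 FPKM in the controls and at 2.46, 2.44 and 1.09 FPKM in P1, P2 and P3. P1 and P2 lay above all controls, and P3 lay just under C2. The mean of 2.00 ± 0.782 FPKM (SD, n = 3) was 2.36-fold that of the controls, and the log2 fold change of 0.68 (SE 0.33) did not reach the threshold (unadjusted p = 0.0787, limma). The unadjusted p was 0.0417 when P3 was left out (limma). Without C4 the log2 fold change was 0.53 (SE 0.33, unadjusted p = 0.158, limma). LOXL3 also entered the test through the pacing libraries, since its control mean was 0.847 FPKM.

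LOX (ENSCAFG00000028461, chromosome 11, 12022968 to 12040277, minus strand) is the founding enzyme of the family and acts on both collagen and elastin. It was at 4.88, 3.59 and 1.28 FPKM in C1, C2 and C4 and at 4.65, 5.98 and 4.11 FPKM in P1, P2 and P3. All pacing libraries were above C2 and C4, and only P2 was above C1. The log2 fold change was 0.57 (SE 0.39, unadjusted p = 0.183, limma) and came down to 0.17 (SE 0.24, unadjusted p = 0.501, limma) without C4.

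LOXL2 (ENSCAFG00000009187, chromosome 25) crosslinks fibrillar and basement membrane collagen and was the lysyl oxidase with the highest mean level. It was at 11.9, 9.42 and 11.2 FPKM in the controls and at 9.35, 11.9 and 21.9 FPKM in P1, P2 and P3. It was the only member that was not lowest in C4, and P3 alone stood above the controls. The log2 fold change was 0.29 (SE 0.32, unadjusted p = 0.391, limma) and -0.03 when P3 was left out. Without C4 it was 0.32 (SE 0.37, unadjusted p = 0.417, limma). Its listed span (34126274 to 34206962) is shared with R3HCC1, whose log2 fold change was 0.38 (unadjusted p = 0.284, limma).

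The 5 enzymes were then set against each other within each library, which takes out any factor common to a library. These ratios were chosen after the levels had been seen and are a description. LOXL1 stood at 1.43, 1.42 and 1.42 times the FPKM of LOX in C1, C2 and C4, and at 2.38, 2.23 and 2.64 times in P1, P2 and P3. C4, in which both genes were at about 0.30 of the mean of C1 and C2, thus had the same ratio as the other controls. The SD of LOXL1 over LOX in the controls was 0.199% of its mean. Relative to LOX, 0 of 11582 genes tested had a smaller value, and the median was 59.8%. The ratio is thus the most even of many, and its evenness was not tested. LOXL4 stood at 0.213, 0.117 and 0.270 times LOX in the controls and at 0.407, 0.458 and 0.599 times in the pacing libraries. Relative to LOX, the groups did not overlap in 0.544% of the other genes tested in the direction of higher and in 27.3% in the direction of lower. Of the 10 ratios among the 5 enzymes, 3 did not overlap between groups, namely LOXL1 and LOXL4 over LOX and LOXL4 over LOXL2. The share over all genes was computed for ratios to LOX only. The levels of LOXL1 and LOXL4 already did not overlap between groups, so this count is not a separate result. With 3 libraries against 3, an exact permutation test cannot go below p = 0.1. The read counts behind these FPKM values are unknown, so the counting error of a ratio cannot be given.

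**Figure D2:**
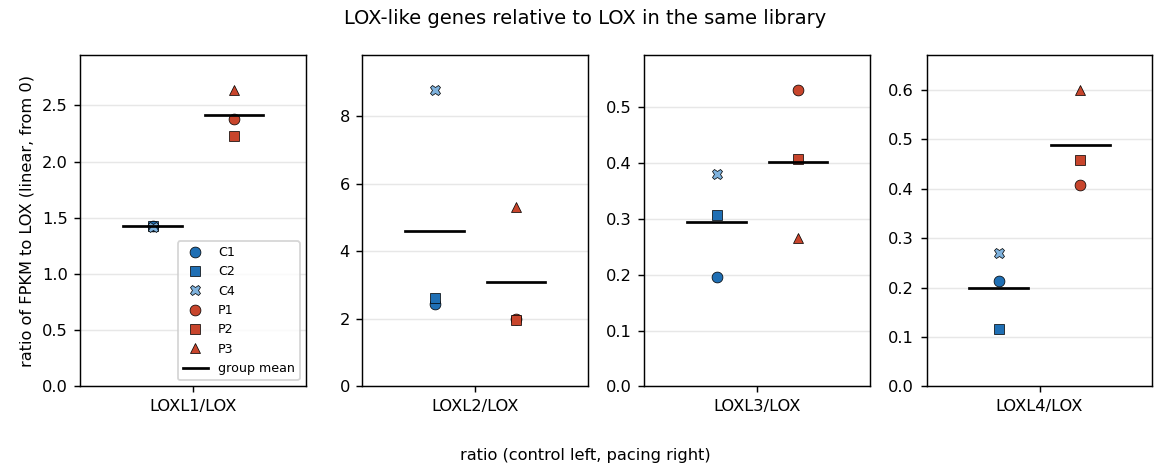
FPKM of each LOX-like gene divided by that of LOX in the same library (linear axes from 0, black line at the group mean of 3 libraries). LOXL1 over LOX is 1.42 to 1.43 in the controls and 2.23 to 2.64 in the pacing libraries, LOXL4 over LOX does not overlap either, and LOXL2 and LOXL3 over LOX do.

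Taken as parts of the summed FPKM of the 5 enzymes, LOXL2 made up 46.4, 47.9 and 74.1% in C1, C2 and C4 and 31.8, 32.6 and 54.1% in P1, P2 and P3. LOXL1 made up 27.0, 26.0 and 12.0% in the controls and 37.6, 36.7 and 26.9% in the pacing libraries. In P1 and P2 the largest part was thus LOXL1, and in the other 4 libraries it was LOXL2. LOXL4 made up 2.13 to 4.04% in the controls and 6.11 to 7.54% in the pacing libraries. The sum of the 5 enzymes was 25.8, 19.6 and 15.2 FPKM in C1, C2 and C4 and 29.4, 36.3 and 40.4 FPKM in P1, P2 and P3.

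ELN (ENSCAFG00000028947, chromosome 6, 6304622 to 6321742, minus strand) encodes tropoelastin, the main substrate of the lysyl oxidases in the elastic fibre. It was at 21.5, 20.2 and 4.29 FPKM in C1, C2 and C4 and at 27.6, 10.1 and 27.2 FPKM in P1, P2 and P3. C1 and C2 were near each other, with P1 and P3 above them and P2 below them. The log2 fold change was 0.61 (SE 0.64, unadjusted p = 0.372, limma) with C4 and -0.07 (SE 0.45, unadjusted p = 0.875, limma) without it.

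FBN1 (ENSCAFG00000014548, chromosome 30, 14638883 to 14864146, minus strand), which encodes the main fibrillin of microfibrils, was the most abundant of the elastic fibre genes. It was at 73.8, 72.0 and 27.9 FPKM in the controls and at 105, 86.8 and 58.3 FPKM in P1, P2 and P3. P1 and P2 were above all controls, and P3 was below C1 and C2. The log2 fold change of 0.60 (SE 0.42, unadjusted p = 0.193, limma) became 0.15 (SE 0.28, unadjusted p = 0.602, limma) without C4.

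FBLN5 (ENSCAFG00000010853, chromosome 8, 1162149 to 1228970, minus strand) encodes fibulin-5, which carries tropoelastin to microfibrils and binds LOXL1. It was at 32.6, 17.6 and 7.60 FPKM in C1, C2 and C4 and at 25.5, 29.9 and 14.1 FPKM in the pacing libraries. The highest and the lowest level were both in controls. FBLN1 (ENSCAFG00000000804, chromosome 10, 20498765 to 20564761, minus strand), a fibulin found with elastic fibres and fibronectin, was at 24.2, 34.8 and 8.22 FPKM in the controls and at 36.5, 37.3 and 10.3 FPKM in P1, P2 and P3. C4 and P3 were low and the other 4 libraries high. The log2 fold changes of FBLN5 and FBLN1 were 0.40 (unadjusted p = 0.459) and 0.32 (unadjusted p = 0.630) with C4, and -0.11 (unadjusted p = 0.797) and -0.24 (unadjusted p = 0.687) without it (limma).

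FN1 (ENSCAFG00000014345, chromosome 37, 22455905 to 22523117, minus strand) had the highest mean level of the 10 genes and the widest range. It was at 40.9, 309 and 25.2 FPKM in C1, C2 and C4 and at 178, 134 and 81.1 FPKM in P1, P2 and P3. C2 was the highest of all 6 libraries, and the other 2 controls were the lowest. The group means were nearly equal (125 ± 159 FPKM against 131 ± 48.6 FPKM, SD, n = 3), and the log2 fold change was 0.85 (SE 0.87, unadjusted p = 0.361, limma). Leaving out C2 gave 1.92 (unadjusted p = 0.00215, limma), and leaving out C4 gave 0.14 (unadjusted p = 0.872, limma). With C4 and C1 both left out it was -1.30 (unadjusted p = 0.0463, limma), and with C4 and C2 both left out it was 1.59 (unadjusted p = 0.0212, limma).

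C2 was highest for 1 of the 10 genes (FN1) and for 29.5% of all genes tested. It was also highest in some other matrix genes. COL1A1 was at 151 FPKM against 17.8 to 127 FPKM elsewhere, and VCAN, which encodes versican, at 1379 FPKM against 215 to 507 FPKM. COL1A2 and COL3A1 were highest in C2 as well, whereas DCN and DPT were highest in C1 and LUM in P2. How these genes relate to the level of FN1 was not tested.

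**Figure D3:**
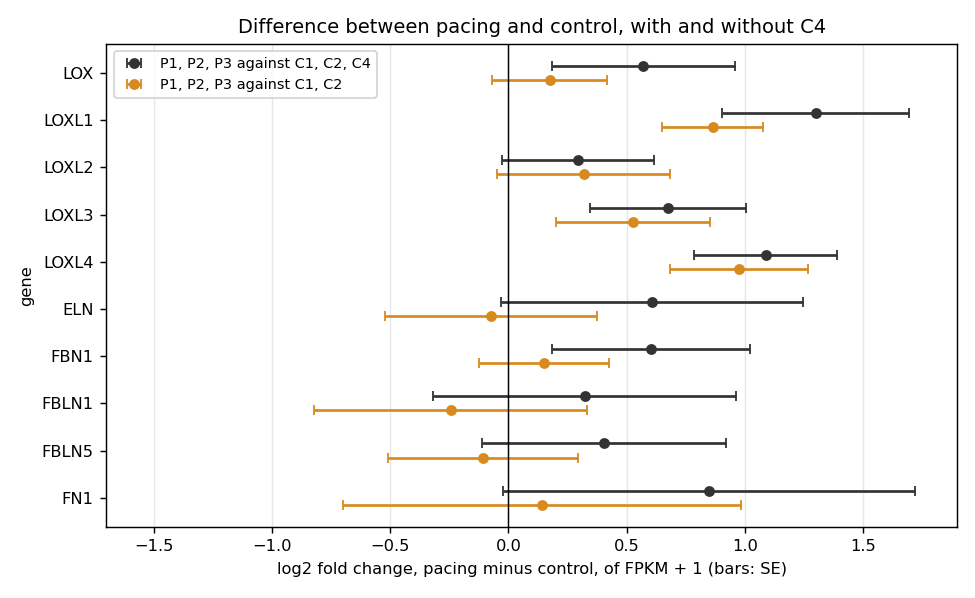
Log2 fold change of FPKM + 1, pacing minus control, with its standard error for the 10 genes, against 3 controls (black) and against C1 and C2 (orange). LOXL1, LOXL3 and LOXL4 stay above 0 by more than their error in both, while ELN, FBLN1 and FBLN5 lie on the other side of 0 once C4 is left out.

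With C4 as a control, all 10 genes had a log2 fold change above 0, as had 46.7% of all genes tested, and the median was 0.61 against -0.03 for all genes. Without C4, 7 of the 10 were above 0 against 36.2% of all genes, and the median was 0.16 against -0.16. C4 had the lowest level of the 6 libraries for 9 of the 10 genes and for 43.5% of all genes tested. Those 9 genes were at 0.144 to 0.474 of the mean of C1 and C2 in C4, and the median of all genes was 0.673. With C4 counted as pacing, 4 of the 10 were above 0, the median was -0.20 against -0.22 for all genes, and no member was past an unadjusted p of 0.05.

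Over the 6 libraries, 40 of the 45 pairs of members had a positive Pearson correlation of log2(FPKM + 1), and the 5 negative ones all held LOXL2. LOX and LOXL1 had the highest value (0.93), followed by LOX with FBLN5 (0.92) and with FBN1 (0.92). Without C4, 25 pairs were positive, the median went from 0.65 to 0.17, and LOXL1 with LOXL4 had the highest value (0.98). These values describe 6 and 5 libraries that share their depth and tissue makeup with both genes of each pair. They pool control and pacing libraries, so the group difference of LOXL1 and LOXL4 also enters the value of that pair.

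Beside the fibroblast markers of the same library, LOXL1 was at 0.852, 0.590 and 0.523 FPKM per 100 FPKM of summed markers in C1, C2 and C4 and at 1.40, 1.53 and 1.65 in P1, P2 and P3. LOXL4 was at 0.0483 to 0.128 in the controls and at 0.239 to 0.375 in the pacing libraries. LOXL3 was at 0.117, 0.127 and 0.140 in the controls and at 0.311, 0.281 and 0.166 in P1, P2 and P3, so its groups did not overlap on this scale. The other 7 members overlapped, and of all genes tested 1.57% were higher without overlap. This scale was also chosen after the levels had been seen. Of the fibroblast markers, 1 of 8 (LUM, which encodes lumican) was higher at an unadjusted p under 0.05 with C4 as a control, and none was without it. Of all genes tested, 2.52% and 2.61% were higher at that threshold. No marker was lower at it, but without C4 1 of the 8 was lower without overlap, as were 26.7% of all genes.

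Another marker list separated C1 and C2 from the other 4 libraries. The 5 adipocyte markers in the table summed to 539 FPKM in C1 and 221 FPKM in C2. They summed to 5.59 FPKM in C4 and to 5.33 to 8.78 FPKM in the pacing libraries. The sum in C4 lay within the range of the pacing libraries, but the single markers did not. LIPE made up 4.77 FPKM of it and was above its 1.63 to 3.28 FPKM in the pacing libraries. ADIPOQ, PLIN1, CIDEC and LEP were lower in C4 than in every pacing library. With C4 as a control, 1 of the 5 was lower at an unadjusted p under 0.05 and 0 passed the adjusted threshold (limma). Over all genes tested, 3.02% were lower and 0.0259% passed the adjusted threshold. Without C4, all 5 were lower at an unadjusted p under 0.05 and 3 passed the adjusted threshold. The shares over all genes were then 12.7% and 0.171%. CIDEC, which was among those past the adjusted threshold, and LEP had pacing means of 0.807 and 0.364 FPKM. Both lay below the filter of 1 FPKM there and entered the test through the controls. The 5 markers of smooth muscle, whose cells also make elastin, summed to 640, 353 and 77.9 FPKM in C1, C2 and C4. The pacing libraries had 425 to 529 FPKM. TAGLN made up 560 and 298 FPKM of the sums in C1 and C2. TAGLN, MYH11 and ACTA2 were lowest in C4 and overlapped between groups. MYOCD was at 16.9 FPKM in C4 and 17.8 FPKM in C1. It was lower than in every control in the pacing libraries (10.5 to 13.6 FPKM, unadjusted p = 0.0401 with C4 and 0.0314 without it, limma). SMTN was higher in every pacing library (15.4 to 17.2 FPKM), and its 9.95 FPKM in C4 was near its 10.6 FPKM in C2. The part of either cell type in the levels of the 10 genes was not tested.

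Of 23 further elastic fibre genes, 22 were in the table and 18 were tested. With C4 as a control 3 were higher and none lower at an unadjusted p under 0.05, and without C4 2 were higher and 3 lower. Over all genes these shares were 2.52% higher and 3.02% lower with C4, and 2.61% higher and 12.7% lower without it. MFAP4, which encodes a microfibril-associated protein that binds elastin, was at 7.28, 3.58 and 0.933 FPKM in C1, C2 and C4 and at 21.5, 22.4 and 11.5 FPKM in P1, P2 and P3. Its groups did not overlap, and its log2 fold change was 2.16 (SE 0.54, unadjusted p = 0.00502) with C4 and 1.61 (SE 0.39, unadjusted p = 0.00674) without it (limma).

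FBN2, which encodes the fibrillin most abundant in developing tissue, was at 4.25, 4.67 and 2.88 FPKM in the controls and at 8.0, 11.1 and 19.2 FPKM in P1, P2 and P3. Every pacing library was above every control, with P3 the highest. The log2 fold change was 1.42 (SE 0.35, unadjusted p = 0.00433) with C4 and 1.25 (SE 0.36, unadjusted p = 0.0136) without it (limma). FBN1 did not pass the unadjusted threshold, and the difference between the 2 fibrillin genes was not tested.

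LTBP3, which encodes a protein that tethers latent TGF-beta, was at 7.76, 6.35 and 2.07 FPKM in the controls and at 18.7, 9.20 and 11.2 FPKM in P1, P2 and P3. It did not overlap between groups, and its unadjusted p was 0.0312 with C4 and 0.0581 without it (limma). FBLN2, another fibulin, was at 26.3 and 24.1 FPKM in C1 and C2, at 3.10 FPKM in C4 and at 12.3, 11.7 and 8.63 FPKM in P1, P2 and P3. It was lower than in C1 and C2 by a log2 fold change of -1.15 (SE 0.21, unadjusted p = 0.00178, limma), and -0.26 (unadjusted p = 0.720, limma) with C4 as a control. EMILIN2, an elastic fibre glycoprotein, was at 38.6 FPKM in C2 and at 1.96 to 5.97 FPKM in C1, C4 and P1, and P2 and P3 were listed at nearly 0. Its unadjusted p was 0.0832 with C4 and 0.0384 without it (limma), and P1 lay between C1 and C2. The 3 lower genes were FBLN2, EMILIN2 and LTBP4.

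**Figure D4:**
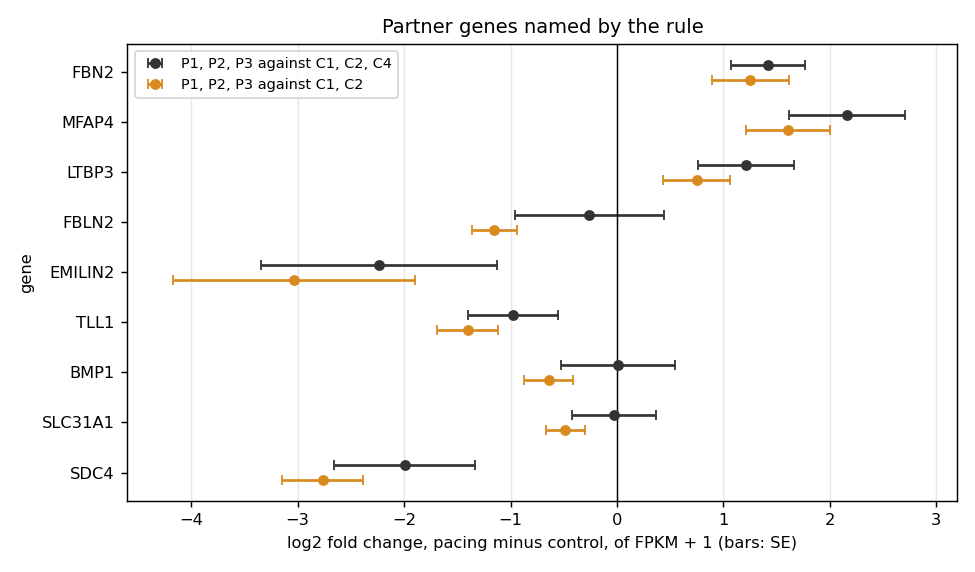
Log2 fold change of FPKM + 1, pacing minus control, with its standard error for 9 partner genes, against 3 controls (black) and against C1 and C2 (orange). FBN2, MFAP4 and LTBP3 lie above 0 in both comparisons, and FBLN2, BMP1 and SLC31A1 lie below 0 by more than their error only without C4.

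The partners of crosslinking include the proteases that activate LOX and the proteins that bring it copper. Of 13 such genes 12 were tested, and none was past the unadjusted threshold with C4 as a control. Without C4, none was higher and 3 were lower, when 12.7% of all genes tested were lower. TLL1, a protease related to BMP1, was at 2.94, 3.53 and 0.752 FPKM in C1, C2 and C4 and at 0.982, 0.423 and 0.448 FPKM in P1, P2 and P3 (log2 fold change without C4 -1.40, unadjusted p = 0.00298, limma). The pacing mean of TLL1 was 0.618 FPKM, below the filter of 1 FPKM, so it entered the test through the controls. BMP1, which cleaves the propeptide of LOX, was at 17.6, 16.5 and 3.67 FPKM in the controls and at 13.6, 9.90 and 8.75 FPKM in the pacing libraries (-0.64, unadjusted p = 0.0328, limma, without C4). For SLC31A1, a copper importer, the log2 fold change without C4 was -0.49 (unadjusted p = 0.0390, limma). With C4 as a control the 3 values were -0.98, 0.01 and -0.03, with unadjusted p of 0.0539, 0.987 and 0.950 (limma).

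Of 9 fibronectin partners (integrin receptors, syndecan-4 and tenascin-C) 8 were tested, and 1 was lower at the unadjusted threshold in each comparison, as were 3.02% of all genes with C4 and 12.7% without it. SDC4, the membrane proteoglycan syndecan-4, was at 416, 317 and 72.7 FPKM in C1, C2 and C4 and at 86.4, 43.4 and 38.7 FPKM in P1, P2 and P3. C1 and C2 were far above all others, and C4 was within the range of the pacing libraries. Its log2 fold change was -2.00 (SE 0.66, unadjusted p = 0.0188, adjusted p = 0.879) with C4 and -2.76 (SE 0.38, unadjusted p = 0.000382, adjusted p = 0.112) without it (limma). Of 7 proteases that cut elastin, 5 were tested and none was past the unadjusted threshold in either comparison.

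The circRNA table, which counts reads across back-splice junctions, was a second readout of these genes. It held 22987 to 41299 junction reads per library, of which the 10 genes had 0 to 6. They had 5 circRNAs, of which 3 came from FBN1, 1 from ELN and 1 from FBLN5, and none had reads in more than 2 libraries. The one with the most reads, an exonic circRNA of FBN1 on the minus strand (canFam3 chromosome 30, 14822412 to 14836793), had 5 reads in C1 and 2 in P1. No circRNA of the lysyl oxidases, FBLN1 or FN1 was listed. None of the 5 passed an unadjusted p of 0.05 with a 2-fold change, which 1.02% of 15990 circRNAs passed, and the smallest unadjusted p was 0.233 (edgeR). At this depth no difference in them was detectable.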

How the data were processed

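Total RNA of 3 control and 3 paced dogs, which the study describes as right atrial, was analysed. The mRNA table holds FPKM values that the authors computed on canFam3, and HISAT2, Cufflinks and Cuffdiff are listed in the submitters' processing notes, with no version or option given. Adapters were trimmed with cutadapt 1.9.3. The circRNA table holds counts of junction reads deposited by the authors, who used Bowtie2 and find_circ. Of the per-sample columns, 36 were not used (scaled counts, normalized circRNA values, and the lncRNA and miRNA tables), and 0 of 9610 lncRNA transcripts were annotated to the 10 genes.

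Columns were grouped by their names, and C4 was counted as control. The mRNA test was limma 3.58.1 (trend, 2-sided) on log2(FPKM + 1) for genes whose mean reached 1 FPKM, with Benjamini-Hochberg adjustment over all genes tested. The scaling between libraries was set by the authors, and another scaling moves all genes together. For circRNAs the quasi-likelihood test of edgeR 4.0.16 with TMM scaling was used. The study states no test for the mRNA table. No filter was set on circRNAs. As a check of the code, values were simulated for 11583 genes (pacing against control), and 200 of them were raised 4-fold in FPKM + 1. Their median log2 fold change was 2.03. Of these 200 genes, 185 passed an unadjusted p of 0.05 and 129 the adjusted threshold (limma). Of the 11383 unchanged genes, 618 passed the unadjusted threshold. For genes with low levels such a change is more than 4-fold in FPKM, so these counts do not give the power for a 4-fold change in FPKM. No total read count is given for FPKM, and the relative depth was 0.531 to 1.

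The genes and lists were chosen with earlier results of these data known. All 10 genes were named. Of the partner lists, up to 6 genes in each direction with the smallest unadjusted p under 0.05 in either comparison were named. LTBP4, STOML1, PML, R3HCC1, COL1A1, VCAN and LUM were named after their values were seen. The same holds for COL1A2, COL3A1, DCN, DPT, the named adipocyte and smooth muscle markers, MYL3, MYH7 and IRX4. Alternatives covered the pseudocount, the filter, scaling, the trend, the group of C4, DESeq2 1.42.0 for circRNAs and each library left out in turn.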

Additional observations from a re-analysis of the deposited data

How the results depend on the processing

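LOXL1 and LOXL4 kept their direction under every alternative run. LOXL1 was past the unadjusted threshold under all of them except with C4 counted as pacing, which gave log2 values of 0.32 for LOXL1 (unadjusted p = 0.637, limma) and 0.65 for LOXL4 (unadjusted p = 0.213, limma). With C4 as a control, LOXL3 passed with median scaling (unadjusted p = 0.0437) and with each library scaled to the same sum (unadjusted p = 0.0330, limma). Without C4 it did not pass with either (unadjusted p = 0.0871 and 0.0740, limma). These scalings moved all genes: the median log2 fold change went from -0.03 to 0.02 and 0.18 (members from 0.61 to 0.67 and 0.85), and without C4 from -0.16 to 0.06 and 0.04 (members from 0.16 to 0.40 and 0.38). The share of genes above 0 went from 46.7% to 52.7 and 67.7%, and without C4 from 36.2% to 55.3 and 52.8%. Without C4, ELN then turned from -0.07 to 0.17 (median) and 0.13 (same sum), and FBLN5 from -0.11 to 0.13 and 0.10.

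With C4 counted as pacing, 26 genes passed the adjusted threshold instead of 3, 0 members were higher instead of 2, and the log2 fold changes of LOX (-0.17), ELN (-0.57), FBN1 (-0.22), FBLN1 (-0.61), FBLN5 (-0.47) and FN1 (-0.42) turned. Without C4, 20 genes passed, which became 10 with a pseudocount of 0.1 FPKM, 13 with no filter and 13 with median scaling.

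Leaving out each library in turn moved the genes past the adjusted threshold between 3 and 20, and ELN (-0.0738 to 1.06), FBLN1 (-0.24 to 0.91) and FBLN5 (-0.11 to 0.87), which turned without C4, and LOXL2 (-0.0349 to 0.54), which turned without P3. Leaving out a further library besides C4 gave 6 to 29 genes past the adjusted threshold, 1 to 2 members higher and 0 to 1 lower (FN1, without C1), and it turned LOX (-0.00349 to 0.35), LOXL2 (-0.0101 to 0.56), ELN (-0.31 to 0.38), FBN1 (-0.0335 to 0.39), FBLN1 (-0.54 to 0.34), FBLN5 (-0.54 to 0.32) and FN1 (-1.30 to 1.59). A control group of 1 library was then assumed to vary like the pacing group.

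No alternative left a circRNA of the 10 genes past the thresholds. The filter of edgeR on low counts kept 0 of their circRNAs and gave no value, and the lncRNA alternatives could not be run because no transcript belonged to the genes. The cause of these changes was not tested. No paired analysis was possible because the sample titles share no number between the groups, and the numbers of the table columns are not tied to labelled samples. The depth of the FPKM is known only as a ratio between libraries.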
